A study of Rattus norvegicus with 24 samples.

Results

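The dose comparison in rat midbrain rests on 4 of the 24 arrays of a study of MK-801 in 6 brain regions: all the arrays titled midbrain, with no selection on measured values. Agilent arrays of 2 colours compared RNA from MK-801 brains with RNA from saline brains, once with the treated RNA in Cy5 and once with it in Cy3. In the high-dose group, male Wistar rats received MK-801 at 0.16 mg/kg into the peritoneum. The low-dose group received 0.08 mg/kg and the controls received saline, and brains were taken 40 min later. The study used 9 rats in all, 3 of them given saline, aged 9 weeks in the sample labels and 10 weeks in the design text. The labels name no genetic modification and do not say whether the 2 arrays of a dose carried RNA of different rats. A pair of arrays was therefore counted as 1 sample, and each dose had 1 sample in the midbrain. No test within the midbrain was possible, and an SD given below is the spread between the 2 dye orientations only.

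MK-801 (dizocilpine) blocks the open channel of the NMDA receptor, a glutamate-gated ion channel assembled from GluN1 and GluN2 subunits. The midbrain holds the dopamine neurons of the substantia nigra and ventral tegmental area, which project to the striatum and cortex, and serotonin neurons of the raphe. Immediate-early genes are transcription factors and signalling regulators whose mRNA appears within minutes of a stimulus, without new protein synthesis. Brain tissue is enclosed by the meninges, whose fibroblasts make fibrillar collagens and small proteoglycans, and is crossed by vessels with smooth muscle and blood.

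Each value is a log2 ratio of MK-801 over saline on 1 array, and the dose difference is the high-dose ratio minus the low-dose ratio within a dye orientation, averaged over both orientations. The array carried 35526 named features, of which 15503 had a gene symbol, and 23421 passed the filter on dim probes. Region markers were read on the saline channels, and not all of them set the midbrain apart. Th, which makes the precursor of dopamine, stood at 13.82 log2 units in midbrain saline RNA, against 7.07 to 9.10 in the other 5 regions. Slc18a2, the vesicular monoamine transporter, stood at 13.19 in midbrain saline RNA, against 6.67 to 8.40 elsewhere. Drd1, the D1 dopamine receptor of striatal neurons, stood at 6.43 in midbrain saline RNA, below the 6.62 to 10.88 of the other regions. Pitx3 of the dopamine neuron list was at 7.94, against 7.25 to 7.60. Fev of the serotonin neuron list was at 6.09, within the 5.94 to 6.22 of the others. Pmch of the hypothalamic list was at 9.94 in the midbrain, against 13.07 in the hypothalamus and 7.83 in the cortex.

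The high-dose array with treated RNA in Cy5 stood apart from the other 3. It held 75 features with a ratio below -1, against 4, 5 and 7 on the others. The SD of its ratios was 0.246, against 0.162 to 0.202. On it 60.1% of spots were well above background in Cy3, against 68.9% to 69.8% on the others. Where a pair of values is given below, it can be read with and without this array. A single difference is the mean of both orientations.

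At the call used here, a mean difference of at least 1.5-fold with the same sign in both orientations, 96 of 23421 features (0.41%) differed between the doses. Of these, 66 (0.282%) were higher and 30 (0.128%) were lower at the high dose. Among the 21563 features measured at both doses, 81 (0.376%) were called, 61 higher and 20 lower. The median difference over all tested features was -0.01. Most of the called features that were higher also passed the fold in each orientation on its own, 53 of 66, and this held for 11 of the 30 lower ones. Of the 18 called features with an orientation under 1.2-fold, 16 were lower at the high dose. From the arrays with treated RNA in Cy3 alone, which leaves out the array that stood apart and its low-dose partner, 93 features passed the fold, 75 higher and 18 lower. From the arrays with treated RNA in Cy5 alone, 401 passed, 91 higher and 310 lower. The number of lower features thus differed between the orientations, and the high-dose array alone was not left out. The split also depended on the scaling, with 95 higher and 72 lower at a smaller background offset, and 368 higher and 323 lower from the scanner's own processed signals. Of 105 features whose orientations disagreed by over 1 log2 unit, 96 were lower in the Cy5 orientation. Across tested features the orientations correlated at 0.149, a description over features that share arrays.

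**Figure D1:**
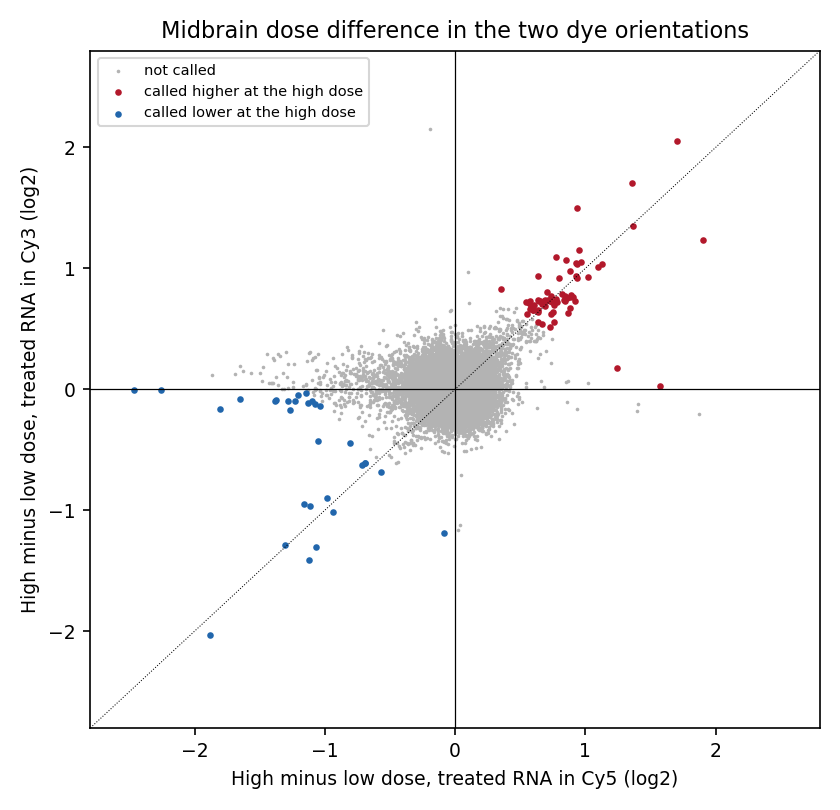
Dose difference (log2, high minus low) of each tested feature with treated RNA in Cy5 (x axis) and in Cy3 (y axis), with the 66 features called higher in red and the 30 called lower in blue. Called higher features lie mostly along the diagonal, while many called lower ones lie near 0 on the y axis; 1 feature, Gtf3c3, falls outside the axes.

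Genes of meningeal fibroblasts were the list with most called members. This list, like the others, was chosen with earlier results of these data known. Of 19 genes, 16 were tested, and 11 were called higher and none lower, where 0.282% of all features were called higher. The median difference of the list was 0.73, against -0.01 over all features, and its range was -0.40 to 1.36. The list medians on the single arrays were 0.48 and 0.45 at the high dose, against -0.19 and -0.28 at the low dose. The list thus lay above saline on both high-dose arrays and below it on both low-dose arrays. Of the 16, 14 were higher at the high dose in both orientations. The count was 11 from the Cy3 orientation alone and 9 from the Cy5 orientation alone. The median difference of the treated channels was 0.81 and that of the saline channels 0.09, against 0.07 and 0.09 over all features. In bulk tissue fewer cells of a type and less RNA per cell cannot be told apart, here and in every group that follows.

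Col1a2, a chain of type I collagen, had ratios of 0.89 and 0.84 at the high dose, against -0.47 and -0.52 at the low dose (treated RNA in Cy5 first here and in each pair of values below). The difference of 1.36 ± 0.01 (SD over the 2 orientations) was 2.56-fold, and a further probe of the gene gave 0.88. Col1a1, the other chain of that collagen, had 0.73 and 0.56 at the high dose, against -0.22 and -0.59 at the low dose. All 4 arrays placed both chains above saline at the high dose and below it at the low dose, as they did Col3a1. Col3a1, the chain of type III collagen, had 0.73 and 0.65 at the high dose, against -0.30 and -0.29 at the low dose. Col1a1 probes disagreed in size, with 1.05 from the brightest and 0.50 and 0.20 from the others.

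Igf2, a growth factor made by the meninges, had ratios of 0.72 and 1.0 at the high dose, against -0.41 and -0.04 at the low dose, a difference of 1.08 ± 0.07. Ogn, a small proteoglycan of the matrix, had 0.70 and 0.53 at the high dose, against -0.18 and -0.45 at the low dose. Neither gene's groups overlapped. The remaining called members differed by 0.59 to 0.76. They were the proteoglycans Fmod (0.76), Dcn (0.74) and Bgn (0.73), the GABA transporter Slc6a13 (0.73), the retinoic acid binding protein Crabp2 (0.64) and the growth factor binding protein Igfbp2 (0.59). Igfbp2 differed by 0.35 with treated RNA in Cy5 and by 0.83 in Cy3. Slc6a13 differed by 0.01 in the treated channel and by -0.72 in the saline channel. Single channels also carry spot differences shared by both, so such a split does not place the difference in either RNA. Lum, another proteoglycan, was short of the fold at 0.51, as was Ptgds, prostaglandin D synthase, at 0.40. Asgr1, a lectin receptor, was the only member lower in both orientations, at -0.40.

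Cilp, a matrix protein first described in cartilage, had ratios of 0.64 and 0.87 at the high dose, against -0.72 and -0.84 at the low dose. Its groups did not overlap and its difference was 1.53 ± 0.25, or 2.89-fold. Its second probe gave only 0.37, so the brighter one, which carried the larger value, is printed (chr8:69535987-69536046, plus strand, rn3 as the array files give it).
Cilp, brighter probe: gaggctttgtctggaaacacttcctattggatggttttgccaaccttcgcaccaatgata

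Mfap5, a protein of elastic microfibrils, had ratios of 0.84 and 0.22 at the high dose, against -0.10 and -0.70 at the low dose, a difference of 0.93 ± 0.01. S100a6, a calcium-binding protein of fibroblasts and other cells, had 0.65 and 0.48 at the high dose, against -0.44 and -0.53 at the low dose. Both genes were above saline on the high-dose arrays and below it on the low-dose arrays. The S100a6 difference was 1.05 ± 0.06 from the probe in sense orientation (chr2:182846235-182846294, plus strand, rn3). A probe of the same gene on the opposite strand (chr2:182846202-182846261) gave 0.11. The pair shares 27 bases as reverse complements, in capitals.
S100a6, plus-strand probe: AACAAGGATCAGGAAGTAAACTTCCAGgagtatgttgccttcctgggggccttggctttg
S100a6, minus-strand probe: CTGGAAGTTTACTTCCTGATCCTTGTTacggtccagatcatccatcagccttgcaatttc

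Genes of contractile smooth muscle were read from a list assembled after the values were seen. Of 12 genes, 10 were tested, 5 were called higher and none lower, where 0.282% of all features were called higher. The list median was 0.49. Tpm2, a tropomyosin of muscle thin filaments, had ratios of 0.62 and 0.74 at the high dose, against -0.31 and -0.31 at the low dose. Des, the muscle intermediate filament desmin, had 0.67 and 0.74 at the high dose, against -0.21 and -0.03 at the low dose. Both genes kept the doses apart in each orientation, with differences of 0.99 ± 0.08 and 0.82 ± 0.08. Tagln, an actin-binding protein of smooth muscle, had 0.44 and 1.04 at the high dose, against -0.33 and -0.06 at the low dose. Its difference was 0.94 ± 0.23, with -0.77 in the saline channel and 0.17 in the treated channel, values that include spot differences shared by both. Myl9, a myosin regulatory light chain, differed by 0.73. The uncalled members were between 0.01 and 0.25, among them Smtn, an actin-associated protein, at 0.25 and Mylk, myosin light chain kinase, at 0.09.

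Myh11, the smooth muscle myosin heavy chain, had ratios of 0.35 and 0.95 at the high dose, against -0.45 and 0.03 at the low dose. Its groups did not overlap, and its difference was 0.86 ± 0.09. A second probe in the same gene gave -0.01 (rn3, chr10:719479-719538, against chr10:769508-769567 for the brighter), so the gene's difference is given for 1 probe only.
Myh11, brighter probe: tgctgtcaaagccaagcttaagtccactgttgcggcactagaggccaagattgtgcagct
Myh11, second probe: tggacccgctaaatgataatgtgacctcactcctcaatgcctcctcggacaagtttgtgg

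**Figure D2:**
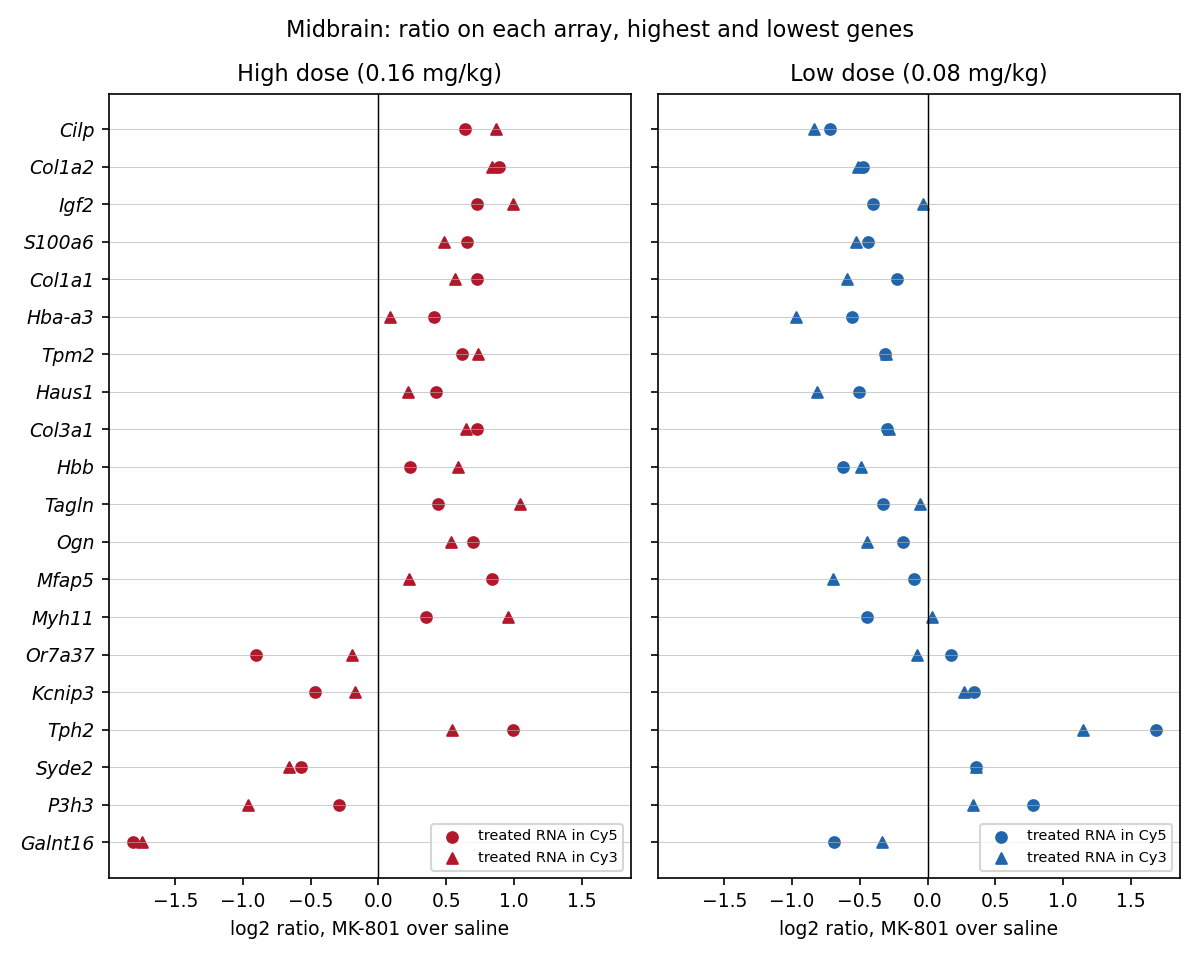
Log2 ratio of MK-801 over saline on each of the 4 midbrain arrays for genes among the highest and lowest at the high dose (high dose left in red, low dose right in blue; circles, treated RNA in Cy5; triangles, treated RNA in Cy3). Collagen and muscle genes lie right of 0 at the high dose and mostly left of 0 at the low dose, and Tph2 lies right of 0 on all 4 arrays.

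Of 19 blood cell genes, 9 were tested, and 3 were called higher and none lower, where 0.282% of all features were called higher. The median was 0.40, and 5 of the 9 were higher in both orientations. Hba-a3, an alpha globin, had ratios of 0.41 and 0.08 at the high dose, against -0.56 and -0.97 at the low dose, a difference of 1.01 ± 0.06. Hbb, beta globin, had 0.23 and 0.58 at the high dose, against -0.62 and -0.49 at the low dose. Both globins were above saline at the high dose and below it at the low dose. Alas2, the erythroid enzyme that starts haem synthesis, differed by 0.71. Bpgm, the red cell bisphosphoglycerate mutase, and Gp9, a platelet receptor subunit, differed by -0.02 and 0.02. How far the meningeal, muscle and blood genes moved through the amount of those tissues in each dissection was not tested.

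Lists of other cell types had smaller medians. In the choroid plexus and ependymal list 2 of 9 tested genes were called higher, against 0.282% of all features, with a list median of 0.13. Ttr, transthyretin of the choroid plexus, had ratios of -0.11 and -0.24 at the high dose, against -0.69 and -0.90 at the low dose, a difference of 0.62. Kcnj13, a potassium channel of that tissue, differed by 0.64 but was well above background in treated RNA on only 1 low-dose array. Among 21 endothelial and mural genes the 1 called was Tagln, with a list median of 0.08. Among 18 microglial genes the 1 called was Cd74, the invariant chain of MHC class II, at 0.69, with a list median of -0.02. None of 14 astrocyte genes was called, with a median of 0.02, and none of 17 oligodendrocyte genes, with a median of -0.04. In all, 27 of 34 lists had no called member over 399 tested genes, and their medians lay between -0.09 and 0.07. Over all features 0.41% were called, so a list of this size without a call is no result about its genes.

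**Figure D3:**
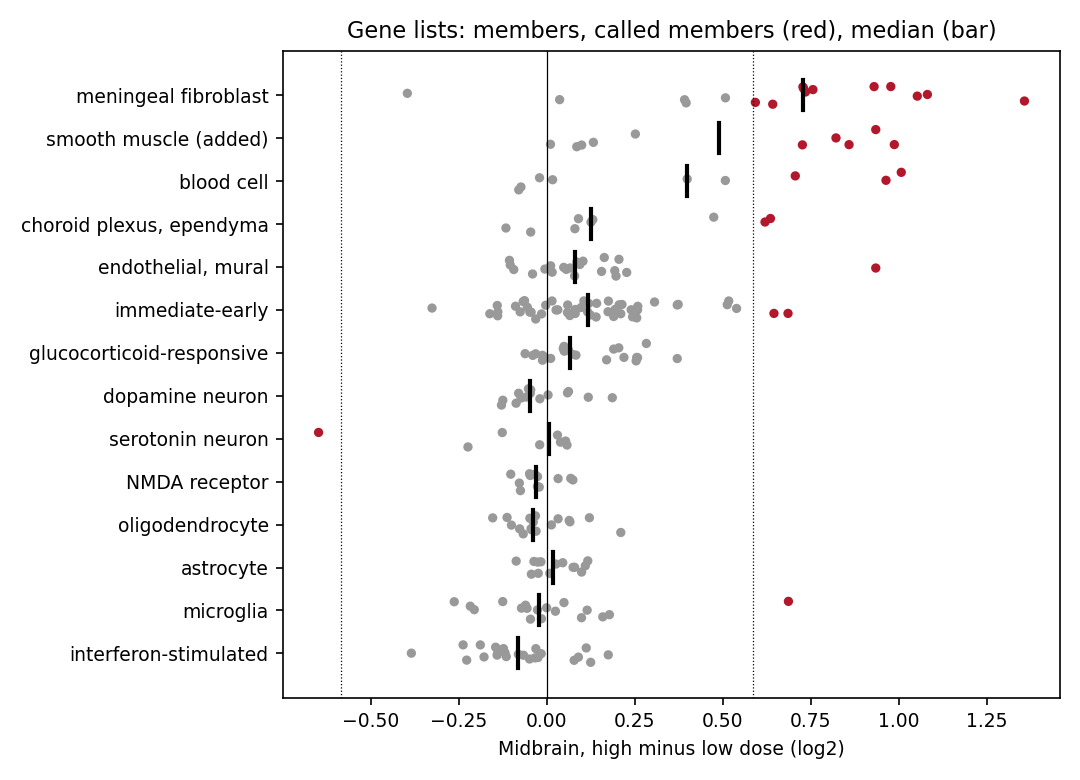
Midbrain dose difference (log2, high minus low; x axis) of each tested member of the gene lists shown (rows), with called members in red, the list median as a black bar and the 1.5-fold limits dotted. The meningeal list, with a median of 0.73, and the smooth muscle list, with 0.49, lie right of the neuronal and glial lists, whose medians are near 0. The smooth muscle list was assembled after the values were seen.

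Immediate-early genes showed small differences. Of 58 genes, 52 were tested, 2 were called higher and none lower, where 0.282% of all features were called higher. The list median was 0.12. The list leaned upward, with 34 of 52 higher in both orientations and 10 lower in both. Over all features 24.3% were higher and 28.4% lower in both. The list was chosen with earlier results of these data known, so this lean is no test. Ccn1, a matrix-associated early gene, had ratios of 0.61 and 0.69 at the high dose, against -0.06 and -0.01 at the low dose. Its difference was 0.69 ± 0.03, though a second probe gave 0.14. Apold1, an early gene of endothelial cells, had 1.15 and 0.53 at the high dose, against 0.63 and -0.03 at the low dose. Its 2 doses overlapped across orientations, and its difference of 0.54 was short of the fold. Klf4, a transcription factor, differed by 0.51, and Ccn2, a relative of Ccn1, by 0.52. Dusp1, a phosphatase of MAP kinases, differed by 0.37 and Btg2, an antiproliferative early gene, by 0.26. Fos, the classical activity marker, had 0.00 and 0.29 at the high dose, against -0.20 and 0.25 at the low dose. Atf3, a stress-induced transcription factor, differed by 0.25, and Klf2, another Krüppel-like factor, by 0.24. Egr2, a zinc finger transcription factor and the other called member, had 0.08 and 0.02 at the high dose, against -0.55 and -0.64 at the low dose. Its dose difference was 0.65, or 1.565-fold. Its treated RNA was well above background on both high-dose arrays and on neither low-dose array. In the treated channel alone, without the ratio to saline, this set a bound of at least 1.61-fold. Such a bound sets the normalised treated-channel mean against the lowest signal well above background, or the probe's own signal where higher. Among 22 tested glucocorticoid-responsive genes none was called, where 0.41% of all features were called, and the median was 0.07.

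The promoter of Egr2 is shown because it carries a CArG box, the motif bound by serum response factor that early genes often share. The 250 bases before its start are from RefSeq (GRCr8, chr20:21054442-21054691, minus strand), with the motif in capitals. A CArG box (CC, 6 bases of A or T, GG, either strand) was counted in a longer window that also ran past the start. It was in that window of 5 of 51 matched immediate-early genes (9.8%) and of 1.64% of 33469 promoters. Among 11 of the 15 highest genes with a promoter in the table, only that of Igf2 held one.
Egr2 promoter: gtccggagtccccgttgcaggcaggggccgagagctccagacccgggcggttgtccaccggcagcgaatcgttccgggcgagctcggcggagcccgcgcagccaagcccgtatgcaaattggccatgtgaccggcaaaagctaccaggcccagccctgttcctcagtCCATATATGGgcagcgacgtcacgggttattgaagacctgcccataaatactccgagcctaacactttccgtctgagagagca

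None of 15 tested dopamine neuron genes was called, with a median of -0.05. Th had ratios of -0.15 and 0.43 at the high dose, against -0.08 and 0.44 at the low dose. Slc18a2 differed by -0.13 and Ddc, which completes the synthesis of dopamine and serotonin, by -0.12. None of 12 NMDA receptor genes was called, with a median of -0.03. With 0.41% of all features called, the lack of a call in either list is no result about its genes. Grin1, the obligatory subunit, differed by -0.03, Grin2a by -0.10 and Grin2b by -0.03.

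Tph2, the enzyme that limits serotonin synthesis in neurons, was the 1 called gene among 8 of serotonin neurons. Over all features 0.128% were called lower. The Tph2 ratio was 1.0 and 0.54 at the high dose, against 1.69 and 1.15 at the low dose. All 4 arrays were above saline, and the low-dose array was the higher in each orientation. The difference was -0.65 ± 0.06, 1.57-fold lower at the high dose, with -0.72 in the treated channel and -0.07 in the saline channel. Slc6a4, the serotonin transporter of the same neurons, had 0.72 and 0.62 at the high dose, against 0.83 and 0.97 at the low dose, a difference of -0.22. Saline levels in the midbrain were 9.47 for Tph2 and 7.89 for Slc6a4, against 6.65 to 8.08 and 6.54 to 6.95 in the other regions. The median of the serotonin neuron list was 0.01.

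The remaining called genes that were lower had varied roles. Galnt16, an enzyme that starts O-linked glycosylation, had ratios of -1.81 and -1.75 at the high dose, against -0.69 and -0.34 at the low dose. All 4 arrays were below saline, further at the high dose, with a difference of -1.27 ± 0.20, or 2.41-fold. Its probe spans chr6:104363509-104367590 on rn3, further than its own length, and is printed because the gene had the lowest named difference.
Galnt16 probe: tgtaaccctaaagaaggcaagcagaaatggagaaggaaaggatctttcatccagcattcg

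P3h3, of the family that hydroxylates collagen prolines, had ratios of -0.29 and -0.96 at the high dose, against 0.78 and 0.34 at the low dose. A second P3h3 probe gave -0.05, against -1.18 from the brighter. In the other regions the brighter probe gave -1.10 to -1.40, with no value in the hippocampus. Syde2, a GTPase activator, had -0.57 and -0.66 at the high dose, against 0.36 and 0.36 at the low dose. Both genes lay below saline at the high dose and above it at the low dose. Kcnip3, a calcium sensor that binds potassium channels, differed by -0.62, from -0.81 with treated RNA in Cy5 and -0.44 in Cy3. Or7a37, an olfactory receptor, differed by -1.08 with treated RNA in Cy5 and by -0.12 in Cy3, so its call rested on the Cy5 orientation. The lowest difference of any feature measured at both doses was that of LOC685106, which has no gene symbol here. It had 0.15 and -0.09 at the high dose, against 2.04 and 1.95 at the low dose, a difference of -1.96. In the other regions it differed by -1.78 to -2.30.

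The other 5 regions came from the same study, and for 90 of the 96 called features all 6 regions had a value. In 44 of them no other region passed 1.5-fold in the same direction, 27 higher and 17 lower. In 8 of them all 5 others passed it in the same direction. Over all features, the same call as in the midbrain was met by 33 of 22735 in the hippocampus, the fewest, to 85 of 23001 in the amygdala, the most. The 8 features shared by all regions included Haus1 and Hbb among the higher ones and Galnt16 among the lower ones. Haus1, a subunit of the augmin complex of the spindle, had ratios of 0.43 and 0.22 at the high dose, against -0.51 and -0.82 at the low dose, in the midbrain. Its difference was 0.99 in the midbrain and 0.81 to 1.11 in the others, but a second midbrain probe gave -0.62. Galnt16 differed by -1.27 in the midbrain and by -0.89, -1.55, -1.46, -1.48 and -1.19 in cortex, hippocampus, amygdala, hypothalamus and ventral striatum.

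The meningeal list had a median of 0.73 in the midbrain, against 0.92 in the cortex. It was 0.01 in hippocampus and 0.08 in amygdala, and below 0 in hypothalamus (-0.30) and ventral striatum (-0.13). Col1a2 differed by 1.36 in the midbrain, against 1.27 in the cortex and -0.53 to 0.27 in the other 4. The smooth muscle list had a median of 0.49 in the midbrain, against 0.15 in the cortex. It was assembled after the midbrain values were seen, so that contrast is no test. For Ccn1 the midbrain difference of 0.69 stood below those of 4 regions, 1.04 to 1.91, and above the 0.51 of the cortex. Atf3 differed by 0.25 in the midbrain, and the other regions averaged 1.36, from 0.71 in the cortex to 1.79 in the ventral striatum. Neither Ccn1 nor Atf3 passed the regional test described below (limma adjusted p = 0.9998 and 0.298). The immediate-early list had a median of 0.12 in the midbrain, within the 0.08 to 0.19 of the other regions.

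**Figure D4:**
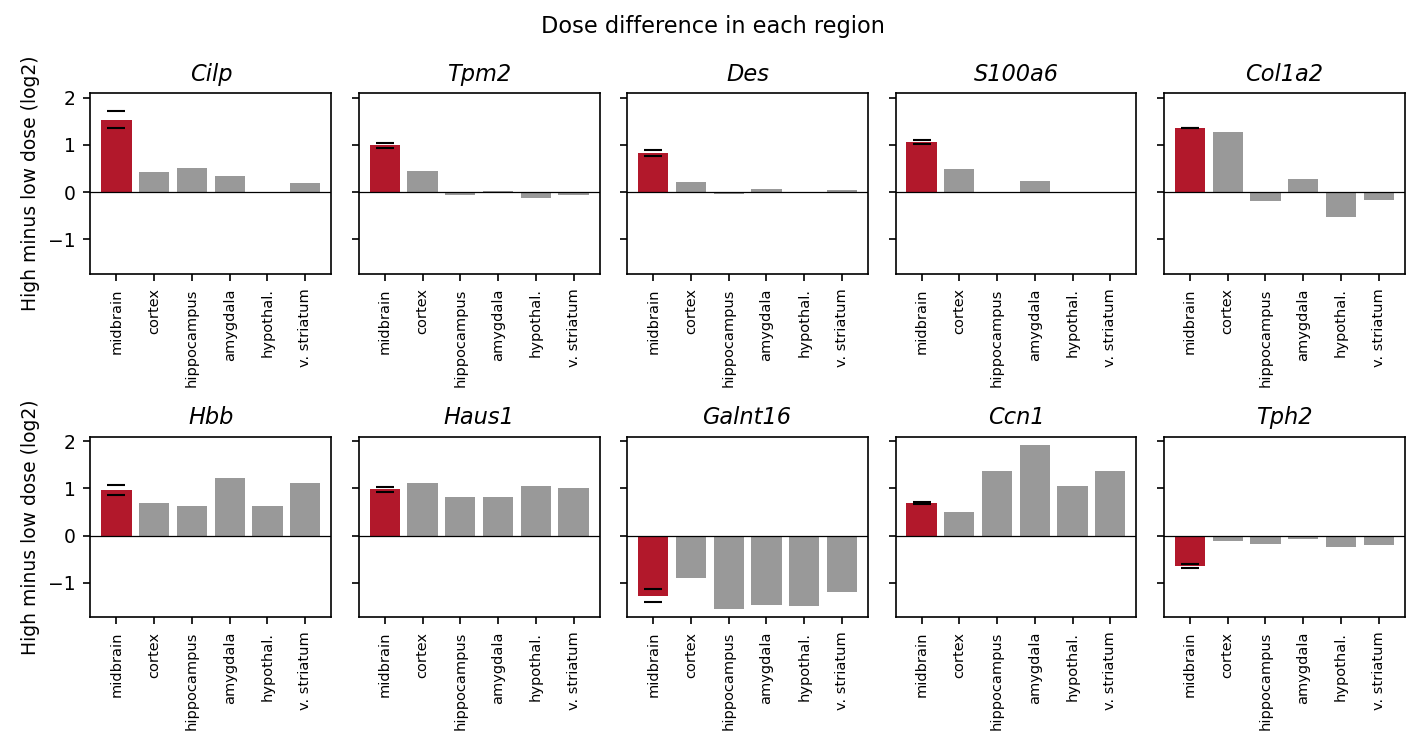
Dose difference (log2, high minus low) in the midbrain (red, with ticks at the values of both orientations) and in the other 5 regions (grey) for the genes named above the panels. Cilp, Tpm2, Des and S100a6 are highest in the midbrain, Col1a2 is high in the midbrain and cortex only, and Hbb, Haus1, Galnt16 and Ccn1 share their sign in all 6 regions.

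Whether the midbrain dose difference differed from the rest was tested with limma over the 6 regional differences, adjusted over 21617 features by the Benjamini-Hochberg method. The single midbrain value was assumed to vary like the other 5, and since each region lay on a slide of its own, slide and region cannot be told apart. At an adjusted p under 0.05, 68 features (0.315%) differed, 24 (0.111%) with the midbrain above the others and 44 (0.204%) below, and 1167 had an unadjusted p under 0.05. Of the 24 above, 17 passed 1.2-fold in both orientations and 4 had orientations of opposite sign, and 5 passed the test with only the arrays with treated RNA in Cy3, against 18 with only those in Cy5. Of the 44 below, none passed 1.2-fold in both orientations and 24 had orientations of opposite sign. None of the 44 passed the test with the Cy3 arrays only, against 43 with the Cy5 arrays only.

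Cilp stood 1.24 ± 0.15 (SE) above the others, whose mean was 0.29 (limma adjusted p = 0.00356), and passed in 12 of 16 alternative settings. Tpm2, Tagln and Des of smooth muscle stood 0.94 ± 0.16, 0.84 ± 0.15 and 0.76 ± 0.10 above them (limma adjusted p = 0.0313, 0.0327 and 0.0088), and passed in 6, 6 and 10 of 16. S100a6 stood 0.92 ± 0.16 above the others (limma adjusted p = 0.0337) and passed in 5 of 16. These tests used the brightest probe of a gene. Second probes of Cilp and S100a6 gave midbrain differences of only 0.37 and 0.11, while further Tpm2 probes gave 0.73 and 0.89. With only the arrays with treated RNA in Cy3, Cilp passed (limma adjusted p = 0.00376), while Tpm2, Tagln, Des and S100a6 did not (limma adjusted p = 0.268, 0.138, 0.206 and 0.218). Egr2 stood 0.53 above the others (limma adjusted p = 0.0374). It passed the filter on dim probes through the high dose only, so that p-value is no support for a midbrain difference. Or7a37 had an estimate of -0.56, below the others (limma adjusted p = 0.0169). Of 12 meningeal genes with values in all regions none passed, and Col1a2 had a limma adjusted p of 0.62. The Tph2 estimate was -0.49 ± 0.09 and just missed the threshold (limma adjusted p = 0.0509). With scan day as a block, which sets the midbrain against the amygdala of its day, Cilp, Tpm2, Tagln, Des and S100a6 missed the threshold (limma adjusted p = 0.0791 to 0.236).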

How the data were processed

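Each array's scanner file held Cy5 and Cy3 intensity values for every spot, with log10 ratios of Cy5 over Cy3, as deposited by the authors; Agilent Feature Extraction 9.5.3.1 made them, per the submitters' processing notes. The authors' deposited table held log10 ratios turned to treated over saline, with medians of the midbrain columns of -0.01 and 0.01 at the high dose and -0.01 and 0.02 at the low dose, and it had 0 columns without a sample.

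Ratios were computed from each spot's mean signal and background median in limma 3.58.1 (R 4.3.3) by normexp with an offset of 50 and loess with control spots at weight 0. Outlier spots were left out and saturated spots kept. Arrays with treated RNA in Cy3 had their sign turned. The brightest probe stood for a gene. Names came from the array files, updated through a RefSeq table (GRCr8) for names only: 12697 spots matched by systematic accession, 126 by another accession, 5726 by symbol and 3732 by synonym, and 21098 kept the file's name. A feature was tested where its probe passed the filter on dim signals. Channel values came from loess followed by Aquantile. Each channel of a dual-colour array also carries spot differences shared with the other channel.

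Named genes were the 15 highest and up to 15 lowest called features with a symbol, up to 4 members of each list, up to 10 genes of the regional test and a fixed set of early and drug-target genes. Further list members were named after their values were seen. The members and the 34 lists were chosen with earlier results of these data known, and a list of smooth muscle genes, with alternatives for single dye orientations and scan day, were added after the values were seen. Some genes and probes that met these rules are not reported here. The scripts were tested on simulated data. The number of arrays limits the precision, and any p-value measures only the spread between these samples, which may be technical.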

Additional observations from a re-analysis of the deposited data

Results flagged for a closer look

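The midbrain dose difference (high minus low) differed from that of the other 5 regions in limma's test for 11 genes named in the text. Egr2, at 0.53, was not measured at both doses, and Or7a37, at -0.56, stood below the others. The estimates of the other 9, all above the others on the log2 scale, were 1.24 for Cilp, 0.94 for Tpm2, 0.92 for S100a6, 0.84 for Tagln, 0.76 for Des, 0.74 for Mustn1, 0.86 for Cela3b, 0.90 for Map3k14 and 3.12 for Gtf3c3. Mustn1, a small nuclear protein of muscle and skeleton, had ratios of 0.69 and 0.53 at the high dose, against -0.20 and -0.24 at the low dose (limma adjusted p = 0.0149). Cela3b, a pancreatic elastase, had 0.74 and 0.43 at the high dose, against -0.11 and -0.34 at the low dose (limma adjusted p = 0.0151). Both kept the doses apart in each orientation, and both missed the threshold with scan day as a block (limma adjusted p = 0.093 and 0.138) and with only the arrays with treated RNA in Cy3 (limma adjusted p = 0.394 and 0.146).

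The estimates of Gtf3c3 and Map3k14 each rested on 1 array. Gtf3c3, a subunit of the RNA polymerase III factor TFIIIC, rested on a ratio of -6.24 on the low-dose array with treated RNA in Cy3. Map3k14, a kinase of NF-kB signalling, rested on a ratio of 1.76 on the high-dose array with treated RNA in Cy5, and the arrays with treated RNA in Cy3 alone gave -0.09.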

How the results depend on the processing

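The count of features past 1.5-fold between the doses was 96 (66 higher, 30 lower). It was 167 (95 higher, 72 lower) with a normexp offset of 16, 691 (368 and 323) from the scanner's processed signals, 674 (364 and 310) from the deposited table, 150 (67 and 83) without a filter on dim probes and 1476 (160 and 1316) from treated channels alone. Of the 96, 95 were also called with the lower offset and 94 from the processed signals. A looser fold threshold gave 453 and a threshold of 2-fold gave 17, and leaving out either replicate gave 93 to 401. A limma fit over all 24 arrays called 127, of which 69 were among the 96. That fit took the 2 arrays of a dose as separate samples, so it measured array error only and is no test of dose. Median centring gave 112 (88 higher, 24 lower).

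The count for the midbrain against the other regions was 68 (24 above, 44 below). It was 19 (10 and 9) with an offset of 16, and 4 each from the processed signals, median centring and the deposited table. It was 317 (41 and 276) without a filter, 36 (15 and 21) with the strict filter, 39 to 140 when leaving out 1 other region (140 without the cortex), 9 (6 and 3) from arrays with treated RNA in Cy3 only, 239 (29 and 210) from those in Cy5 only and 15 (6 and 9) with scan day as a block. The cause of these shifts was not tested. No gene that the text names among those called changed its direction under the alternatives run. The midbrain differences of Gtf3c3 and Map3k14, which were not called, changed sign when 1 replicate was left out, to -0.24 without replicate 2 for Gtf3c3 and -0.20 without replicate 1 for Map3k14. No paired analysis was possible because the labels carry no replicate numbers that pair rats across doses, and the dye orientations are paired in each value already. Limits: 1 sample per dose, 4 arrays, possible RNA of the same rats on both arrays, and no rn3 genome or annotation to place probes in exons.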
